A study of Mus musculus with 15 samples.

Results

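Transcripts of 8 transcription factors of the myeloid lineage, Spi1, Irf8, Irf5, Runx1, Cebpa, Maf, Ikzf1 and Tal1, were followed across the mouse forebrain libraries. They were taken by gene symbol from the count table, which lists 55487 gene identifiers, and each symbol matched 1 identifier. All 8 stood among the 21780 genes that passed the filter on low counts. Tal1 did so with counts of 0 to 28 per library.

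Forebrain RNA of wildtype (WT) mice was measured by bulk RNA sequencing with 15 libraries in all, 3 for every one of 5 groups. Their names follow the labels, namely PLX1X and PLX3X_CD0 (PLX given as 1x and as 3x), PLX3X_CD30, IR-BMT, and NT for no treatment. The libraries of PLX3X_CD30 are titled only as PLX treated and were placed by their library names. The libraries of IR-BMT carry that name in their titles and end in IR in their library names. The labels spell out neither PLX, CD0, CD30 nor IR-BMT, and no dose, time or age was used here. Compounds with a PLX prefix include inhibitors of the receptor CSF1R, on which microglia depend for survival, but the labels do not name the compound. The series title speaks of macrophages that engraft the brain. Nothing in the labels ties replicates to different animals. The p-values therefore speak only of variation among these libraries, part or all of which may be technical.

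Myeloid transcription factors act as a small network. PU.1, the product of Spi1, opens macrophage enhancers and works together with C/EBP, IRF and RUNX family partners, and the dose of PU.1 helps to set whether a progenitor becomes a macrophage, a granulocyte or a lymphocyte. In the brain, microglia need PU.1 and IRF8 to form, and blood-derived macrophages that enter the tissue use the same core factors. Several of these genes are also transcribed outside the myeloid lineage, Maf and Tal1 in groups of neurons and Tal1 in erythroid cells.

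Total counts per library ran from 19249641 to 54801136. Levels below are CPM (a gene's count as its part of the library, on a common scale) after TMM scaling, a correction for differences in library composition. The 14 shared macrophage markers, genes such as Cx3cr1, C1qa and Tyrobp that microglia and other macrophages both express, summed to 22.0 to 61.2 CPM in PLX1X, 17.1 to 41.5 CPM in PLX3X_CD0, 230 to 244 CPM in PLX3X_CD30 and 237 to 279 CPM in IR-BMT, against 420 to 524 CPM in NT. All 14 were lower than NT in PLX1X and in PLX3X_CD0, 4 in PLX3X_CD30 and 8 in IR-BMT. Of all genes tested, 8.12%, 9.53%, 1.84% and 15.4% were lower in those groups, at an adjusted p under 0.05 in edgeR. The marker medians were -0.93 (log2) in PLX3X_CD30 and -1.03 in IR-BMT, and none of the 14 was called between these groups. Snap25, a synaptic gene that marks neurons of the labelled tissue, stood at 2518 to 3408 CPM over all libraries. It is 1 of 9 forebrain tissue markers, which summed to 11959 to 12522 CPM in PLX1X and 10841 to 11814 CPM in PLX3X_CD0. Their sums were 12304 to 12654 CPM in PLX3X_CD30 and 11380 to 11715 CPM in IR-BMT, against 12639 to 13101 CPM in NT. Only PLX3X_CD30 overlapped NT, and the other treated groups lay below it. Of the 12 lymphocyte markers, Ms4a1 was at 0 in every library, and the list summed to 52.6 to 93.1 CPM over all libraries. The 7 endothelial markers summed to 97.2 to 131.7 CPM. One NT library, replicate 1, stood apart with a sum of 276.9 CPM over 8 thalamic and midbrain markers, above every other library. These sums also differed between groups. They were 108.9 to 130.0 CPM in PLX1X, 90.8 to 92.4 in PLX3X_CD0 and 116.3 to 122.3 in PLX3X_CD30. IR-BMT had 99.5 to 103.7 CPM and NT 117.3 to 276.9 CPM, so PLX3X_CD0 and IR-BMT lay below NT without overlap. The part of tissue region in the levels of the factors was not tested. Among the comparisons with NT, leaving out NT replicate 1 ended the call of Runx1 in PLX3X_CD30 and no other call of a factor.

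Start-site sequences of 6 of the 8 factors were in the RefSeq promoter table (build GRCm38.p6, 250 bases before to 50 after the start), which did not include Spi1 and Maf. The following 4 are shown because Irf8 and Runx1 fell far in PLX1X and PLX3X_CD0, Cebpa fell less, and Tal1 was hardly detected. They run 5′ to 3′ on the gene's strand, with matches to the searched motifs in capitals.
Irf8 (chr8:120736108-120736407, plus strand): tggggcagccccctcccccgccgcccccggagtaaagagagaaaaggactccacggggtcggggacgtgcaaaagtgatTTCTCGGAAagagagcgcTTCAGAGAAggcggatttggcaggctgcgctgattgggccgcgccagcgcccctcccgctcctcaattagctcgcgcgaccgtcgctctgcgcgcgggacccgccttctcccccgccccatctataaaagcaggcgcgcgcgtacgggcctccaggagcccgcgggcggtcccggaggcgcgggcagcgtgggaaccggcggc
Runx1 (chr16:92826025-92826324, minus strand): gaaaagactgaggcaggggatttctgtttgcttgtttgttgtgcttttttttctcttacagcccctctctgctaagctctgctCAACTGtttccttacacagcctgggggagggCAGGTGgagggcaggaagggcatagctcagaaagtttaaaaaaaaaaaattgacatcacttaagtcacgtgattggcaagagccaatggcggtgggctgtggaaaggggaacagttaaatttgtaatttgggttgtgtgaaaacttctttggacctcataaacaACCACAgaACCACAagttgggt
Cebpa (chr7:35119043-35119342, plus strand): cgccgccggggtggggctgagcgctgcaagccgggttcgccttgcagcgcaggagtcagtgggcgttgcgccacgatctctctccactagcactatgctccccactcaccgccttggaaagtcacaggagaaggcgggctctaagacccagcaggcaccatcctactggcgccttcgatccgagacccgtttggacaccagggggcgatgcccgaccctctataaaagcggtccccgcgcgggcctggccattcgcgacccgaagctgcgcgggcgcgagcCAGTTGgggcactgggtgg
Tal1 (chr4:115056176-115056475, plus strand): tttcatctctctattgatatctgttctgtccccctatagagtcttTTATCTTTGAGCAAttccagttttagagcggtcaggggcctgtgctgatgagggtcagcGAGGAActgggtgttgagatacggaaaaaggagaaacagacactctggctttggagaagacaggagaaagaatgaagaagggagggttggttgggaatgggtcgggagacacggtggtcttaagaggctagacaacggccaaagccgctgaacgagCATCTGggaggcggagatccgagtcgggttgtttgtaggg
Motifs were searched on both strands. The core bound by PU.1 was taken as GAGGAA, the RUNX site as TGTGGT and the GATA site as AGATAA. The C/EBP motif was TTGCNNAA, the E-box of TAL1 and its partners was CAGNTG, the STAT site was TTCNNNGAA and the MAF half-site was TGCTGAC. An IRF element, a pair of GAAA blocks with 2 free bases between them, was searched too. In the Irf8 window 2 STAT matches were found, 171 and 153 bases before the start; 8.30% of the 32851 promoters in the table hold a STAT match. The Runx1 window held 2 RUNX matches, beginning 29 and 37 bases after the start (16.8% of promoters hold one), and 2 E-boxes. The Cebpa window held 1 E-box, a motif found in 51.4% of promoters. The Tal1 window held 1 match each for GATA (11.2% of promoters), C/EBP (10.8%), the PU.1 core (28.3%) and the E-box, the first pair side by side without overlap. Irf8, Runx1, Ikzf1 and Tal1 each had a second start-site window in the table. It held 1 match each: an E-box in Irf8, the PU.1 core in Runx1, 46 bases before that start, a STAT site in Ikzf1 and a MAF half-site (4.67% of promoters) in Tal1. The single Irf5 window and the first Ikzf1 window held no match. These matches describe letters in the window and do not show binding.

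In PLX1X and in PLX3X_CD0, 7 of the 8 factors were lower than in NT, and Tal1 did not pass the test in either. The median log2 fold change of the 8 was -2.30 in PLX1X and -2.40 in PLX3X_CD0, against medians of -0.04 and -0.03 over all genes tested. At the same threshold, an adjusted p under 0.05 by edgeR's quasi-likelihood test, 8.12% of all genes were lower in PLX1X and 9.53% in PLX3X_CD0, and 9.97% and 12.2% were higher. In PLX3X_CD30, 4 of 8 were lower than in NT (1.84% of all genes; 4.74% were higher) with a median of -1.15, against -0.02 over all genes. In IR-BMT, 3 of 8 were lower (15.4% of all genes; 15.1% were higher) with a median of -0.71, against -0.05 over all genes. No factor was called higher than NT in any group. These comparisons share the NT libraries. In bulk tissue, fewer cells that transcribe a gene and less RNA of that gene per cell cannot be told apart.

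**Figure D1:**
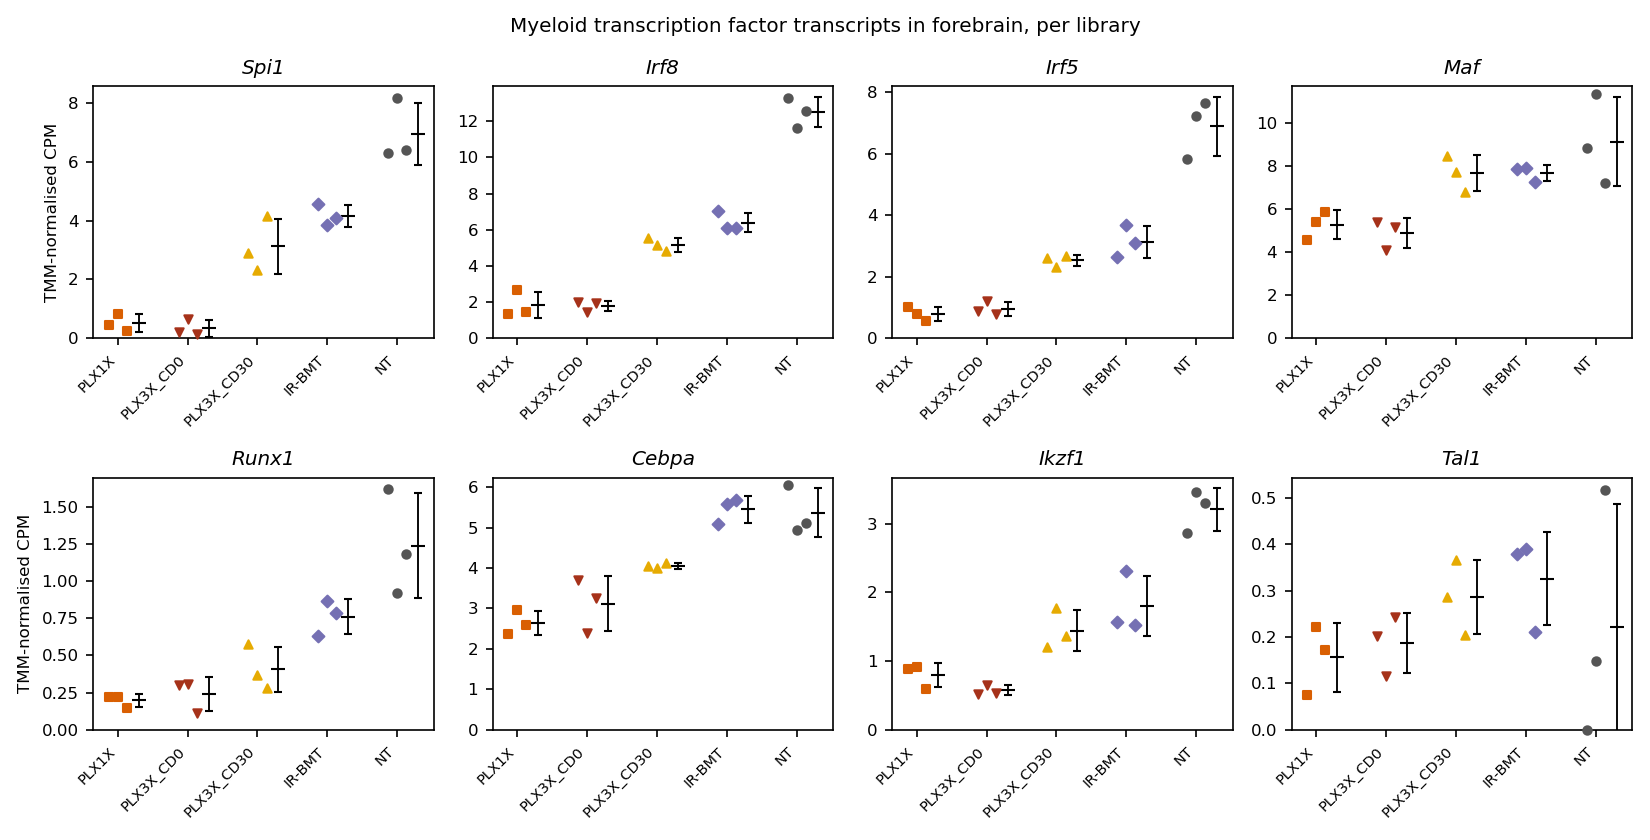
TMM-normalised CPM of each factor (y axis, 0 at the bottom, own scale per gene) in every library, by group (x axis); each point is 1 library and the bar beside it the mean ± SD of 3. Spi1, Irf8, Irf5 and Ikzf1 lie lowest in PLX1X and PLX3X_CD0, intermediate in PLX3X_CD30 and IR-BMT and highest in NT, while Cebpa in IR-BMT overlaps NT; the lower SD bar of Tal1 in NT is clipped at 0.

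**Figure D2:**
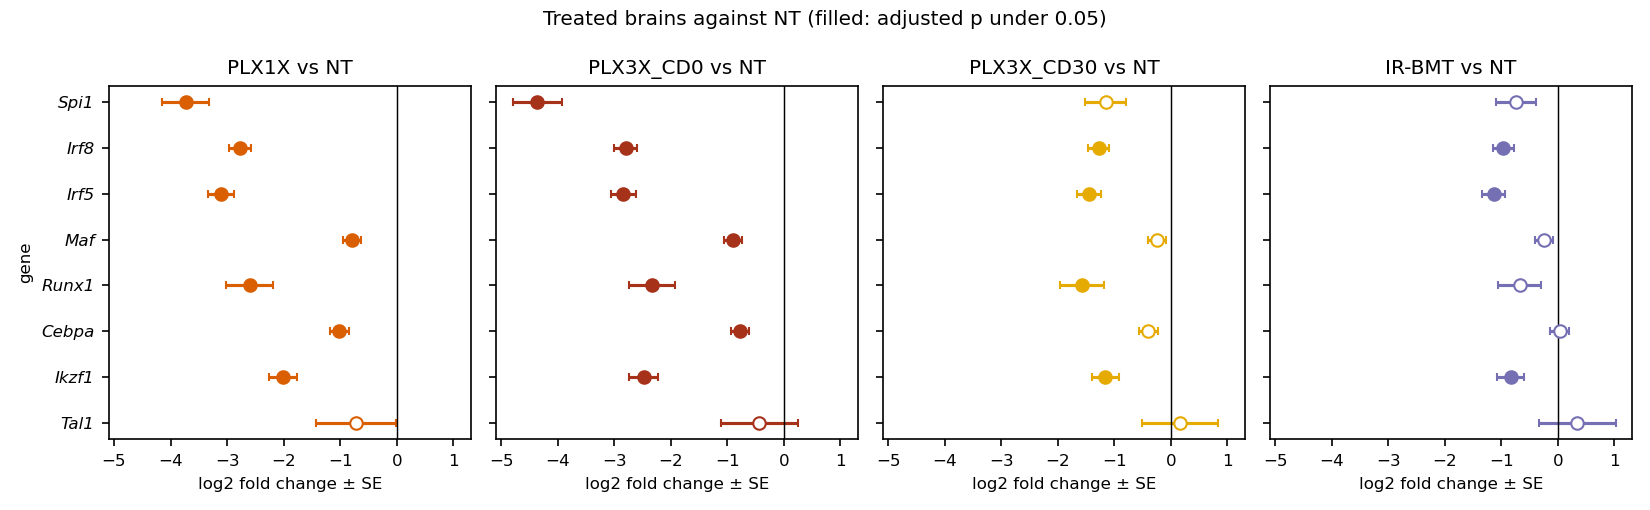
Log2 fold change ± SE of each factor (rows) in the 4 treated groups against NT (panels); filled points have an adjusted p under 0.05 in edgeR. Spi1 has the longest distance from 0 in PLX1X and PLX3X_CD0, and Maf and Cebpa the shortest among the 7 factors that passed.

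Spi1 (ENSMUSG00000002111, chr2:91082390-91115756, plus strand, mm10) encodes PU.1. It stood at 0.463, 0.842 and 0.246 CPM in the PLX1X libraries and at 0.203, 0.660 and 0.149 CPM in the PLX3X_CD0 libraries. Levels were 2.90, 2.32 and 4.16 CPM in PLX3X_CD30 and 4.57, 3.84 and 4.09 CPM in IR-BMT, against 6.29, 8.17 and 6.40 CPM in NT. Every NT library was above every other library, and the libraries of PLX1X and PLX3X_CD0 were all below 1 CPM and overlapped each other. The mean was 7.44% of the NT mean in PLX1X, 4.85% in PLX3X_CD0, 44.97% in PLX3X_CD30 and 60.0% in IR-BMT. Spi1 fell by 3.73 ± 0.42 (log2, SE) in PLX1X (adjusted p = 3.1e-05) and by 4.36 ± 0.44 in PLX3X_CD0 (adjusted p = 5.5e-06). The difference from NT was -1.15 ± 0.36 in PLX3X_CD30 (adjusted p = 0.069) and -0.74 ± 0.35 in IR-BMT (adjusted p = 0.13); neither passed, though the groups did not overlap. These 2 comparisons depended on the fit: PLX3X_CD30 passed with DESeq2 (adjusted p = 0.0065) and both passed when only the 6 libraries compared were fitted (adjusted p = 0.034 and 0.011) or when low counts were not filtered (adjusted p = 1.4e-05 and 0.0055).

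Irf8 (ENSMUSG00000041515, chr8:120736358-120756694, plus strand) encodes the partner with which PU.1 binds composite ETS and IRF sites, needed for monocytes and for normal microglia. Levels were 1.35, 2.66 and 1.48 CPM in PLX1X, 1.99, 1.46 and 1.94 CPM in PLX3X_CD0, 5.53, 5.14 and 4.80 CPM in PLX3X_CD30 and 7.03, 6.07 and 6.09 CPM in IR-BMT, against 13.3, 11.6 and 12.6 CPM in NT. PLX1X and PLX3X_CD0 overlapped at the bottom, and PLX3X_CD30, IR-BMT and NT followed in that order without overlap. Irf8 fell against NT in all 4 groups. The log2 fold change was -2.77 ± 0.20 in PLX1X (adjusted p = 4.1e-08), -2.80 ± 0.20 in PLX3X_CD0 (adjusted p = 2.2e-08), -1.27 ± 0.19 in PLX3X_CD30 (adjusted p = 0.00065) and -0.97 ± 0.19 in IR-BMT (adjusted p = 0.0006). The last is a mean of 51.2% of the NT mean. Its difference between IR-BMT and PLX3X_CD30, 0.31 ± 0.19, did not pass (adjusted p = 0.30).

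Irf5 (ENSMUSG00000029771, chr6:29526625-29541871, plus strand) encodes a factor that Toll-like receptor signalling activates and that drives inflammatory cytokines. It was at 1.02, 0.776 and 0.566 CPM in PLX1X, 0.892, 1.22 and 0.784 CPM in PLX3X_CD0, 2.61, 2.32 and 2.67 CPM in PLX3X_CD30 and 2.65, 3.68 and 3.10 CPM in IR-BMT, against 5.81, 7.21 and 7.63 CPM in NT. The NT libraries lay above all others, and PLX3X_CD30 and IR-BMT overlapped. Irf5 fell by 3.11 ± 0.23 in PLX1X (adjusted p = 4.1e-08). In PLX3X_CD0 it fell by 2.84 ± 0.22 (adjusted p = 6.2e-08), in PLX3X_CD30 by 1.45 ± 0.21 (adjusted p = 0.00059) and in IR-BMT by 1.14 ± 0.21 (adjusted p = 0.00038). The 3′ end of Irf5 shares exonic sequence with Tnpo3 on the opposite strand, and the library kit does not mark strand, so reads there cannot be assigned with certainty. Tnpo3 itself averaged 123.7, 117.7, 114.3 and 108.9 CPM in PLX1X, PLX3X_CD0, PLX3X_CD30 and IR-BMT, against 99.1 CPM in NT, and rose in all 4 groups, by 0.32, 0.25, 0.21 and 0.14 (log2), the opposite direction to Irf5.

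Runx1 (ENSMUSG00000022952, chr16:92601466-92826149, minus strand) is required for the first blood stem cells and acts on the Spi1 enhancer. It was counted thinly, 6 to 64 counts per library. Levels were 0.222, 0.222 and 0.148 CPM in PLX1X, 0.304, 0.310 and 0.112 CPM in PLX3X_CD0, 0.574, 0.365 and 0.283 CPM in PLX3X_CD30 and 0.631, 0.864 and 0.787 CPM in IR-BMT, against 1.62, 0.916 and 1.18 CPM in NT. NT stood above every other group, and IR-BMT stood above PLX3X_CD30 without overlap. Runx1 fell by 2.60 ± 0.42 in PLX1X (adjusted p = 0.00027), by 2.33 ± 0.40 in PLX3X_CD0 (adjusted p = 0.00035) and by 1.58 ± 0.39 in PLX3X_CD30 (adjusted p = 0.021). The last call was lost without NT replicate 1 (adjusted p = 0.063), without PLX3X_CD30 replicate 2 (0.084) or replicate 3 (0.10) and in the fit of 6 libraries (0.070). In IR-BMT the difference was -0.68 ± 0.37 (adjusted p = 0.19).

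Cebpa (ENSMUSG00000034957, chr7:35119293-35121928, plus strand) encodes C/EBPα, which progenitors need to become granulocytes and monocytes. It stood at 2.37, 2.97 and 2.59 CPM in PLX1X, 3.71, 2.39 and 3.27 CPM in PLX3X_CD0, 4.04, 3.99 and 4.14 CPM in PLX3X_CD30 and 5.08, 5.57 and 5.69 CPM in IR-BMT, against 6.05, 4.93 and 5.11 CPM in NT. Here IR-BMT overlapped NT, while the 3 PLX groups lay below NT. It fell by 1.01 ± 0.17 in PLX1X (adjusted p = 0.00034) and by 0.77 ± 0.16 in PLX3X_CD0 (adjusted p = 0.0021). In PLX3X_CD30 the difference was -0.39 ± 0.16 (adjusted p = 0.17). In IR-BMT it was 0.03 ± 0.16 (adjusted p = 0.91), with a 95% interval of -0.31 to 0.37, and the mean was 101.6% of the NT mean. With offsets fitted to the length and GC of each gene's longest transcript (the length and GC offset), the IR-BMT difference was -0.28 (adjusted p = 0.26). Its sign thus depends on the scaling. The antisense gene Gm45091 overlaps the start of Cebpa; it had 131 counts over all 15 libraries and was higher in IR-BMT than in NT by 2.33 ± 0.80 (adjusted p = 0.033).

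Maf (ENSMUSG00000055435, chr8:115682942-115707794, minus strand) encodes c-MAF, which restrains the self-renewal of differentiated macrophages and also serves interneurons. Levels were 4.56, 5.41 and 5.86 CPM in PLX1X, 5.39, 4.08 and 5.17 CPM in PLX3X_CD0, 8.48, 7.70 and 6.81 CPM in PLX3X_CD30 and 7.85, 7.88 and 7.24 CPM in IR-BMT, against 8.82, 11.3 and 7.22 CPM in NT. PLX1X and PLX3X_CD0 lay below NT, and the other groups overlapped it. Maf fell by 0.79 ± 0.16 in PLX1X (adjusted p = 0.0019) and by 0.90 ± 0.16 in PLX3X_CD0 (adjusted p = 0.00044), to 57.8% and 53.4% of the NT mean. The difference was -0.25 ± 0.16 both in PLX3X_CD30 (adjusted p = 0.38) and in IR-BMT (adjusted p = 0.25). The 4 interneuron markers of the medial ganglionic eminence (Lhx6, Nxph1, Pvalb and Sst) summed to 237 to 285 CPM over PLX1X and PLX3X_CD0 and to 248 to 364 CPM in NT, and none of them passed in any comparison with NT (1 did in PLX1X with RLE scaling); their part in the level of Maf was not tested.

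Ikzf1 (ENSMUSG00000018654, chr11:11685003-11772926, plus strand) encodes Ikaros, a zinc finger factor of lymphoid and myeloid development. It was at 0.889, 0.909 and 0.591 CPM in PLX1X, 0.527, 0.660 and 0.541 CPM in PLX3X_CD0, 1.20, 1.77 and 1.36 CPM in PLX3X_CD30 and 1.58, 2.31 and 1.52 CPM in IR-BMT, against 2.86, 3.47 and 3.299 CPM in NT. All treated libraries lay below the NT libraries. Ikzf1 fell by 2.00 ± 0.25 in PLX1X (adjusted p = 2.1e-05), by 2.48 ± 0.25 in PLX3X_CD0 (adjusted p = 1.3e-06), by 1.15 ± 0.24 in PLX3X_CD30 (adjusted p = 0.0068) and by 0.84 ± 0.24 in IR-BMT (adjusted p = 0.011). The IR-BMT call was lost without IR-BMT replicate 3 (adjusted p = 0.059).

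Tal1 (ENSMUSG00000028717, chr4:115056426-115071755, plus strand) encodes a helix-loop-helix factor of blood stem cells and erythroid cells. Its levels were 0.0741, 0.222 and 0.172 CPM in PLX1X, 0.203, 0.116 and 0.243 CPM in PLX3X_CD0, 0.287, 0.365 and 0.205 CPM in PLX3X_CD30 and 0.378, 0.390 and 0.210 CPM in IR-BMT, against 0, 0.149 and 0.516 CPM in NT. The NT libraries spanned the whole range of the other groups and reached beyond it at both ends, and NT replicate 1, the shallowest library, had 0 counts, which allows up to 0.143 TMM-scaled CPM by 3 counts (counting error only). The difference from NT was -0.72 ± 0.71 in PLX1X, -0.44 ± 0.68 in PLX3X_CD0, 0.16 ± 0.68 in PLX3X_CD30 and 0.35 ± 0.68 in IR-BMT, with adjusted p of 0.53, 0.71, 0.92 and 0.75. A change of Tal1 was not detectable at this depth: the 95% interval in PLX1X ran from -2.20 to 0.76. Its sign depended on single libraries. Without NT replicate 3 the difference was 0.74 in PLX1X and 1.02 in PLX3X_CD0. Without NT replicate 1 it was -0.24 in PLX3X_CD30 and -0.08 in IR-BMT, and in PLX3X_CD30 it was -0.09 without NT replicate 2 and -0.04 without PLX3X_CD30 replicate 2. The 4 erythroid markers summed to 6.11 to 54.1 CPM over all libraries, highest in NT, and none of those tested passed against NT.

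Among the treated groups, the order of means was not fully resolved. PLX3X_CD0 against PLX1X gave 0 calls of 8 by edgeR (2.46% of all genes were called in either direction), 0 at an unadjusted p under 0.05 and 0 by DESeq2; the groups overlapped for all 8 factors. PLX3X_CD30 against PLX1X gave 3 higher and 0 lower (1.08% of all genes higher): Spi1 by 2.58 ± 0.42 (adjusted p = 0.0051), Irf8 by 1.498 ± 0.20 (adjusted p = 0.00039) and Irf5 by 1.67 ± 0.23 (adjusted p = 0.00053). The fit of 6 libraries gave 5, adding Maf and Cebpa. PLX3X_CD30 against PLX3X_CD0 gave 5 higher (1.87% of all genes higher): Spi1 by 3.20 ± 0.44 (adjusted p = 0.00056), Irf8 by 1.52 ± 0.20 (0.00013), Irf5 by 1.39 ± 0.22 (0.0011), Ikzf1 by 1.32 ± 0.26 (0.0048) and Maf by 0.65 ± 0.16 (0.025). The call of Maf was lost without PLX3X_CD0 replicate 2 (0.13) or 3 (0.062) or PLX3X_CD30 replicate 1 (0.14) or 2 (0.086). Of all genes called in that comparison 49.2% were higher, and 64.2% with the length and GC offset.

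IR-BMT was higher than PLX1X for 7 of 8 factors (13.9% of all genes higher) and higher than PLX3X_CD0 for the same 7 (10.1%), Tal1 being the exception in both. Against PLX1X the rise was 2.99 ± 0.42 for Spi1 (adjusted p = 9.1e-05) and 0.54 ± 0.16 for Maf (adjusted p = 0.016); the call of Maf was lost without PLX1X replicate 1 (0.087) or IR-BMT replicate 2 (0.056). Cebpa was higher by 1.05 ± 0.17 against PLX1X (adjusted p = 0.00012), 0.62 (adjusted p = 0.017) with the length and GC offset, and by 0.80 ± 0.16 against PLX3X_CD0 (adjusted p = 0.0017), where the offset gave 0.48 and ended the call (adjusted p = 0.081). IR-BMT against PLX3X_CD30 gave 0 calls by edgeR (16.5% of all genes were called in either direction), 2 at an unadjusted p under 0.05 (Runx1 and Cebpa) and 1 by DESeq2 (Cebpa, 0.43, adjusted p = 0.039). The difference of Spi1 there was 0.41 with a 95% interval of -0.36 to 1.19.

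Per kilobase of exonic sequence, Spi1 was the most abundant factor in NT at 2.58 ± 0.39 CPM per kb (SD, n = 3), followed by Irf5 at 2.37 ± 0.33, Cebpa at 2.03 ± 0.23 and Irf8 at 1.77 ± 0.12 CPM per kb, then Maf at 1.11 ± 0.25. The mean ± SD ranges of neighbours in this order overlapped from Spi1 to Irf8, and those of Irf8 and Maf did not. Ikzf1, Runx1 and Tal1 were at 0.555, 0.103 and 0.0506 CPM per kb in NT. In each treated group Cebpa had the highest mean instead. It stood at 1.00 ± 0.12 CPM per kb in PLX1X and 1.18 ± 0.26 in PLX3X_CD0, where Spi1 was at 0.192 ± 0.112 and 0.125 ± 0.104. In PLX3X_CD30 Cebpa was at 1.54 ± 0.03 and Spi1 at 1.16 ± 0.35, and in IR-BMT Cebpa was at 2.07 ± 0.12 and Spi1 at 1.55 ± 0.14 CPM per kb. These order changes were not tested.

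Each factor was then set beside the macrophage markers of its own library, as its log2 CPM minus the mean log2 CPM of the 14 shared markers. The marker mean was lower than the NT mean by 2.72 to 4.41 (log2) in PLX1X, 3.49 to 4.72 in PLX3X_CD0, 0.95 to 1.07 in PLX3X_CD30 and 0.86 to 1.04 in IR-BMT. Spi1 moved with it: its relative level was -1.92 ± 0.12 in PLX1X, -1.91 ± 0.39 in PLX3X_CD0, -1.84 ± 0.36 in PLX3X_CD30 and -1.42 ± 0.07 in IR-BMT, against -1.66 ± 0.16 in NT (SD, n = 3 each). Only IR-BMT did not overlap NT, with a difference of 0.24 (exact permutation p = 0.10, two-sided, the smallest that 3 against 3 libraries can give; adjusted over 80 tests 0.17).

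**Figure D3:**
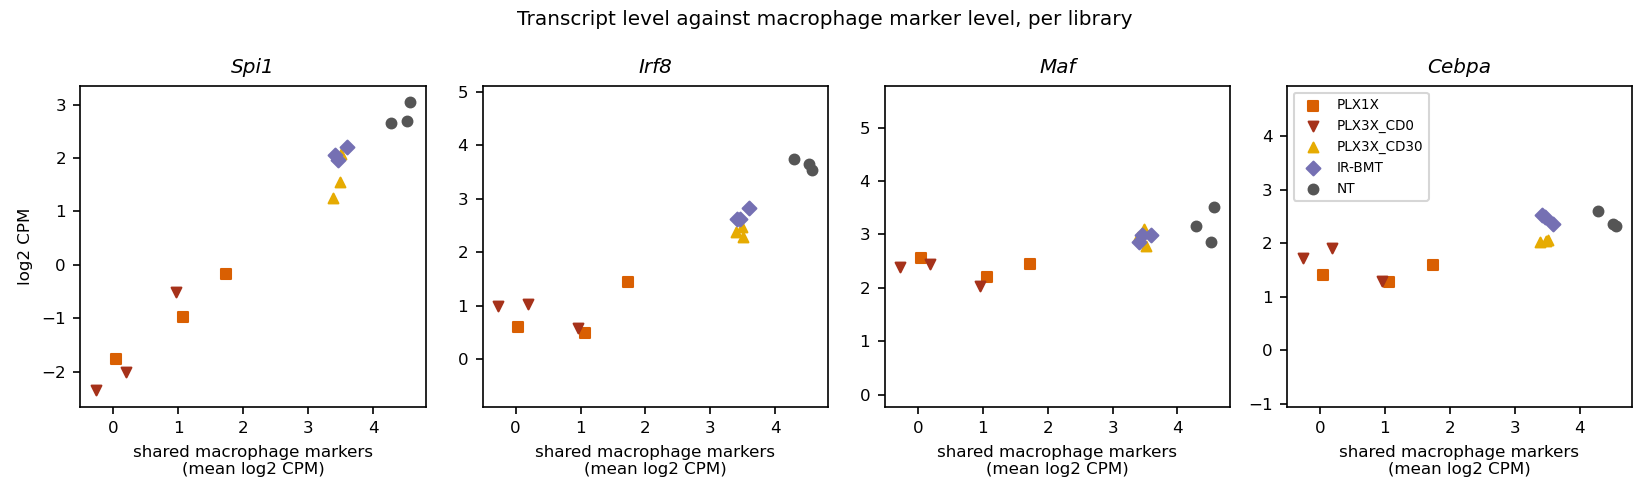
Log2 CPM of Spi1, Irf8, Maf and Cebpa (y axes, each spanning the same number of log2 units) against the mean log2 CPM of the 14 shared macrophage markers (x axis) in 15 libraries, 1 point each. Spi1 falls with the markers through the PLX1X and PLX3X_CD0 libraries, while Maf and Cebpa fall less there.

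The relative level of Maf was 1.46 ± 0.95 in PLX1X, 2.00 ± 0.82 in PLX3X_CD0, -0.52 ± 0.18 in PLX3X_CD30 and -0.55 ± 0.07 in IR-BMT, against -1.28 ± 0.33 in NT. That of Cebpa was 0.47 ± 0.78, 1.35 ± 0.90, -1.42 ± 0.04 and -1.03 ± 0.18 in the same 4 groups, against -2.03 ± 0.31 in NT. For both genes all 4 treated groups lay above NT without overlap (exact permutation p = 0.10 in each, adjusted 0.17). A relative level above NT means only that the change from NT was less negative than that of the markers. A gene with no change from NT would lie above it too, as the marker mean was lower in every treated library. The median change over all genes tested was -0.04, -0.03, -0.02 and -0.05 (log2) in the same 4 groups. The share of all genes that lie above NT without overlap on this measure was not counted. Neither Maf nor Cebpa was called higher than NT in the test on counts. Transcription outside macrophages would also raise a relative level, and its part was not tested. Ikzf1 was above NT by 1.54 in PLX1X and 1.78 in PLX3X_CD0, also without overlap, and by -0.14 and 0.13 in PLX3X_CD30 and IR-BMT, where the groups overlapped. Irf8 differed from NT by 0.70, 1.38, -0.28 and 0.0029, Irf5 by 0.43, 1.37, -0.42 and -0.16, and Runx1 by 1.13, 1.96, -0.52 and 0.32, in PLX1X, PLX3X_CD0, PLX3X_CD30 and IR-BMT in that order. In PLX3X_CD0 these genes too lay above NT without overlap, and Irf5 lay below NT without overlap in PLX3X_CD30. Their other groups overlapped NT. Tal1, close to the detection floor, differed by 3.66, 4.56, 1.91 and 2.03, without overlap in PLX1X and PLX3X_CD0. With microglia-restricted markers in place of the shared ones, the differences of Spi1, Irf8, Irf5 and Ikzf1 in PLX3X_CD30, and of Spi1 in PLX1X, turned positive. No difference passed after adjustment, which 3 libraries a group do not allow. A prior count of 2 was added in the log2 scale, which raises the lowest levels, and a prior of 0.5 left each of the 80 differences within 1 SD.

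**Figure D4:**
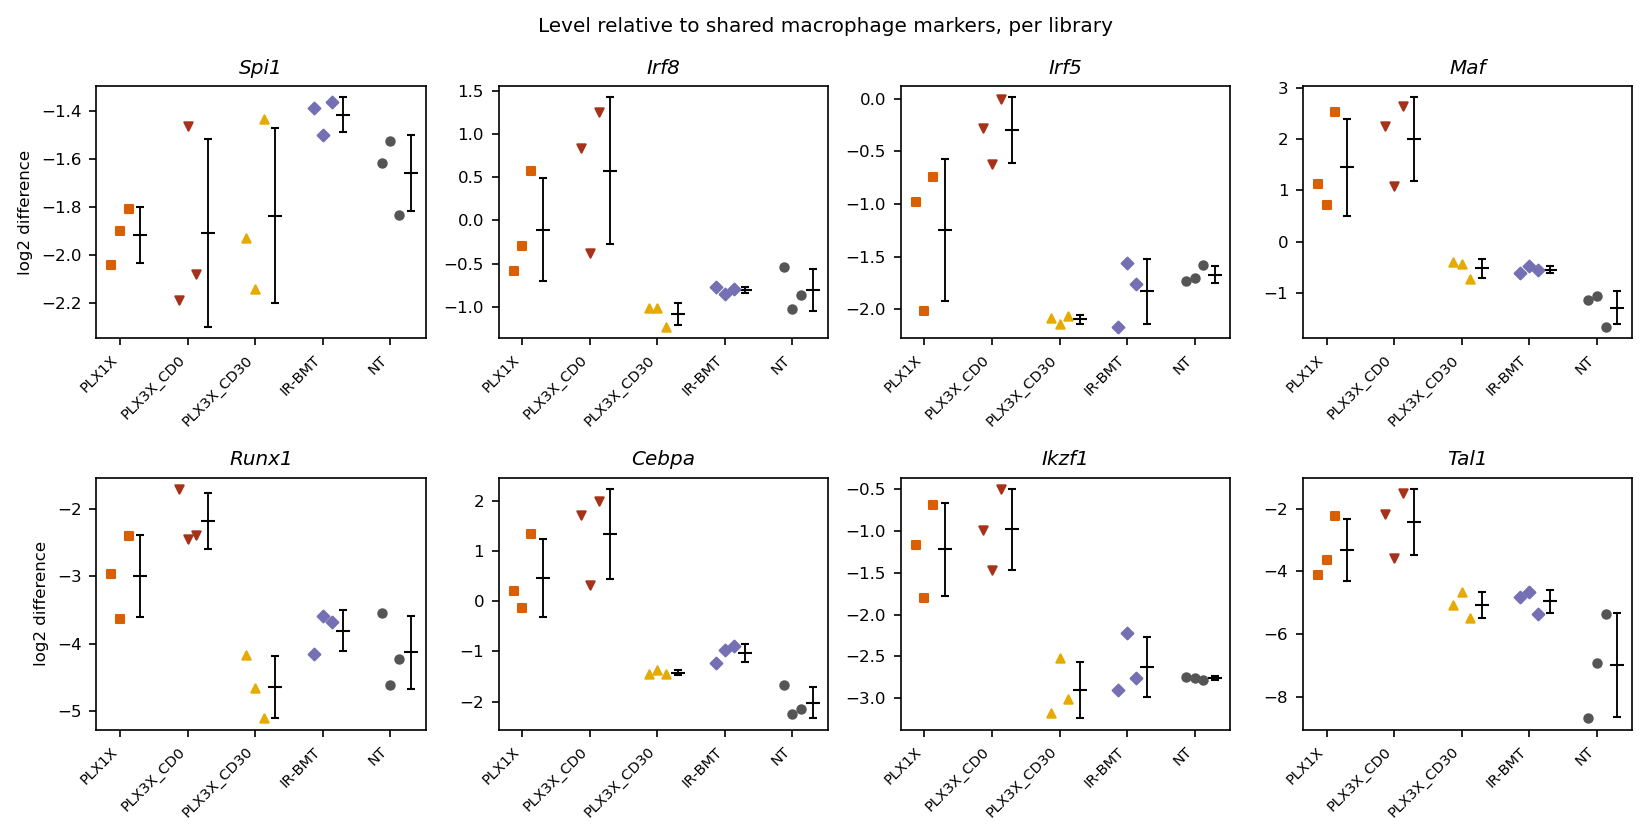
Log2 CPM of each factor minus the mean log2 CPM of the 14 shared macrophage markers (y axis, own scale per gene) in each library by group (x axis), with the mean ± SD of 3. Spi1 stays within 1 log2 unit over all 15 libraries, and Maf and Cebpa lie above NT in each treated group.

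Over the 15 libraries the genes whose log2 CPM followed a factor most closely were taken by Pearson r, as a description; the libraries share their groups, so genes that differ between groups tend to correlate. Spi1 was most like C1qb (r = 0.99), Laptm5 and Arhgap45. Irf8 was most like Nckap1l (r = 0.98), P2ry12 and Inpp5d, and Irf5 like Rnase4 (r = 0.97), Slc2a5 and P2ry12. Ikzf1 was most like Rab3il1 (r = 0.98), Lpxn and Fgd2, and Runx1 like Pycard (r = 0.95), Rps6ka1 and Slc2a5. C1qb and Laptm5 belong to the shared macrophage markers, and P2ry12 and Slc2a5 to the microglia-restricted ones. Their likeness is therefore not separate from the marker levels above. Maf was most like Nfic (r = 0.92), Csf3r and Cd300c2. Cebpa was most like Prr18 and Sox9 (r = 0.93 for both), with Sox9 known from astrocytes and their precursors. Tal1 was most like Tmem42 (r = 0.88). Among the factors, r between pairs that leave out Tal1 ran from 0.73 (Maf and Runx1) to 0.95 (Irf5 and Ikzf1), and with Tal1 from -0.08 to 0.14.

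Known targets of PU.1 were counted next. Of 12 targets, all tested, 12 were lower than NT in PLX1X, 11 in PLX3X_CD0, 4 in PLX3X_CD30 and 5 in IR-BMT. None was higher. Of all genes tested, 8.12%, 9.53%, 1.84% and 15.4% were lower in those groups. The target medians were -3.21, -3.56, -1.02 and -0.85 (log2). Those of the shared macrophage markers were -3.64, -4.40, -0.93 and -1.03. Whether the activity of PU.1 changed was not tested. Csf1r, the receptor on which microglial survival depends, was at 9.00 ± 4.52 CPM in PLX1X, 6.53 ± 3.67 in PLX3X_CD0, 55.0 ± 1.10 in PLX3X_CD30 and 47.5 ± 1.17 in IR-BMT, against 165 ± 17.4 CPM in NT (SD, n = 3 each). Its log2 fold change was -4.19 ± 0.39, -4.66 ± 0.40, -1.59 ± 0.34 and -1.80 ± 0.35 in those groups, each called. Itgam, the CD11b integrin chain, fell in all 4 as well, with log2 fold changes of -4.64, -4.59, -1.32 and -1.11. The exception in PLX3X_CD0 was Csf2ra, a receptor chain for GM-CSF, at 0.01 ± 0.13 (adjusted p = 0.98); in PLX1X it fell by 0.65 ± 0.13. Of 6 cytokine genes known as IRF5 targets only Il12a passed the filter on low counts, and it was not called in any comparison with NT.

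The relatives of the factors within their protein families were also counted. Of all genes tested, 8.12%, 9.53%, 1.84% and 15.4% were lower than NT in PLX1X, PLX3X_CD0, PLX3X_CD30 and IR-BMT. In the same order, 9.97%, 12.2%, 4.74% and 15.1% were higher. With so few genes per family, most counts cannot be told apart from these shares. Of 9 ETS relatives of Spi1 tested, 3 were lower and 1 higher in PLX1X, 4 and 1 in PLX3X_CD0, 0 and 1 in PLX3X_CD30 and 3 and 1 in IR-BMT. Elf4 fell by 2.07 ± 0.37 in PLX1X and by 1.55 ± 0.35 in PLX3X_CD0, and Fli1 by 1.13, 0.96 and 0.75 (all ± 0.17) in PLX1X, PLX3X_CD0 and IR-BMT. Ets2 was higher in all 4 groups by 0.22 to 0.42, but not with the length and GC offset in PLX3X_CD30 (0.16) and IR-BMT (0.09). Of 7 other IRF genes tested 0, 1, 0 and 1 were lower in PLX1X, PLX3X_CD0, PLX3X_CD30 and IR-BMT, the one being Irf2, and none was higher. Of 6 MAF relatives 2, 3, 0 and 1 were lower, among them Nfe2l2, a stress response factor, by 0.37 in PLX1X, 0.51 in PLX3X_CD0 and 0.52 in IR-BMT.

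**Figure D5:**
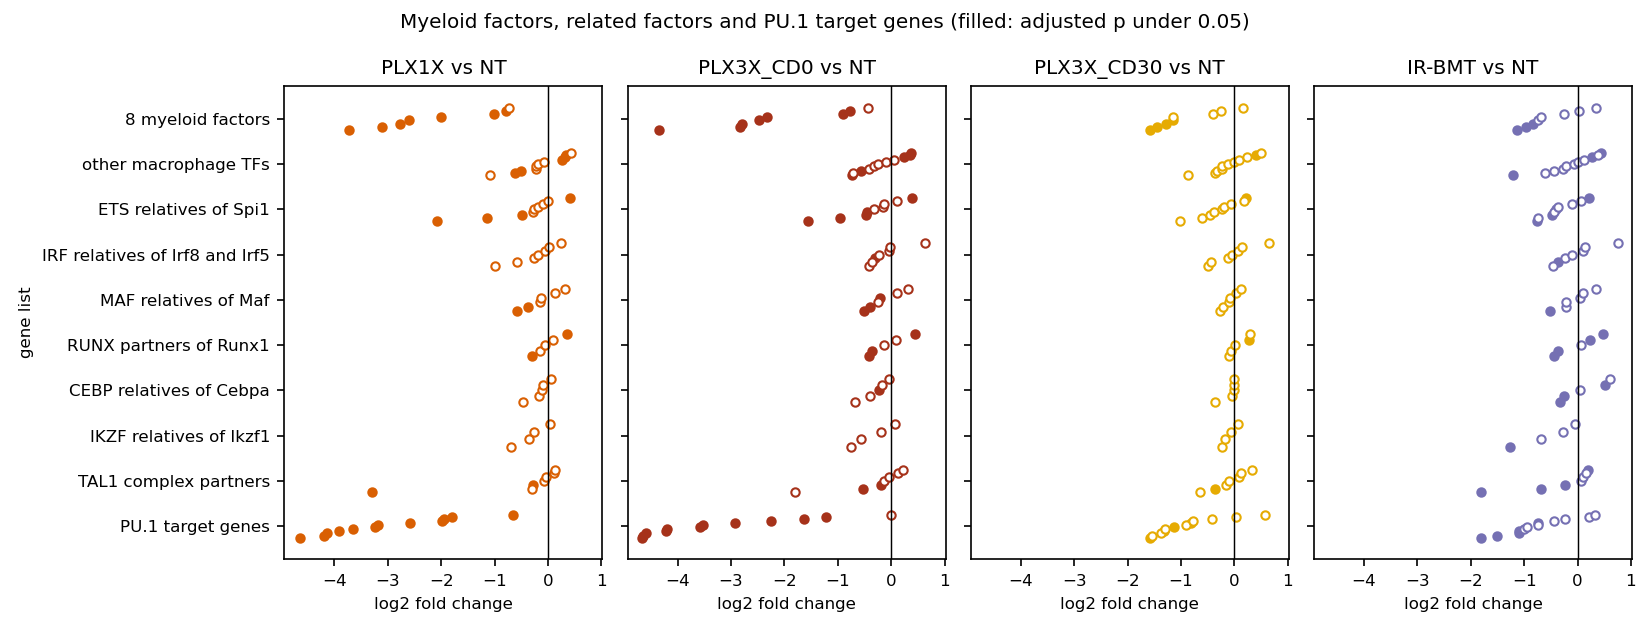
Log2 fold change against NT (x axis) of each gene tested in the 8 factors, 8 related lists and the PU.1 targets (rows), in the 4 treated groups (panels); 1 point per gene, filled where the adjusted p was under 0.05. The factors and the PU.1 targets have medians below -2 in PLX1X and PLX3X_CD0; the medians of the family lists lie between -0.47 and 0.06.

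Of 5 RUNX partners, 1 was lower and 1 higher in PLX1X, 2 and 1 in PLX3X_CD0, 0 and 1 in PLX3X_CD30 and 2 and 2 in IR-BMT. The shares of all genes given for the ETS, IRF and MAF relatives hold beside the counts here too, in IR-BMT 15.4% lower and 15.1% higher. Cbfa2t2, a corepressor of the ETO family, was the gene higher in each of the 4 groups, by 0.35, 0.46, 0.27 and 0.23. Runx2 was higher in IR-BMT by 0.47 ± 0.12 (adjusted p = 0.006), while Runx1 was not. Of 5 CEBP relatives 0 were lower in PLX1X, 1 in PLX3X_CD0, 0 in PLX3X_CD30 and 2 in IR-BMT, where Cebpd was the 1 gene higher (0.51 ± 0.19, adjusted p = 0.044); with the length and GC offset none of these 3 IR-BMT calls passed. Of 4 IKZF relatives only Ikzf3 was called, in IR-BMT (-1.26 ± 0.37, adjusted p = 0.013). Of 7 partners of TAL1 tested 2, 2, 1 and 3 were lower and 0, 0, 0 and 1 higher; the call in PLX3X_CD30 was lost with the length and GC offset. Lyl1, the closest relative of Tal1, was at 0.0494, 0.160, 0.363 and 0.156 CPM in PLX1X, PLX3X_CD0, PLX3X_CD30 and IR-BMT, against 0.567 CPM in NT. It fell in PLX1X (-3.29 ± 0.75, adjusted p = 0.0046) and IR-BMT (-1.81 ± 0.68, adjusted p = 0.049). These levels are near the floor of 3 counts, 0.0556 to 0.0739 CPM in PLX1X, where the mean lay below it, and 0.0787 to 0.0946 CPM in IR-BMT.

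Other transcription factors of macrophages gave the following values. Sall1, which in microglia keeps their tissue identity and is also transcribed by other neural cells, was not called: it stood at 12.1 ± 1.80, 15.7 ± 9.66, 14.1 ± 3.15 and 16.7 ± 3.305 CPM in PLX1X, PLX3X_CD0, PLX3X_CD30 and IR-BMT, against 25.4 ± 11.9 CPM in NT. Mef2c, a factor of both neurons and microglia, was higher in all 4 groups by 0.34 to 0.44. Bhlhe41 fell by 1.21 ± 0.11 in IR-BMT and by 0.74 ± 0.11 in PLX3X_CD0.

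Markers of particular macrophages gave the following values beside the factors. Of all genes tested, 8.12%, 9.53%, 1.84% and 15.4% were lower than NT in PLX1X, PLX3X_CD0, PLX3X_CD30 and IR-BMT. In the same order, 9.97%, 12.2%, 4.74% and 15.1% were higher. All 9 microglia-restricted markers were lower than NT in PLX1X and in PLX3X_CD0 and 7 in each of PLX3X_CD30 and IR-BMT, with P2ry12 at 2.02 ± 0.72, 1.85 ± 0.65, 11.9 ± 1.38 and 13.3 ± 1.43 CPM in the 4 groups, against 40.2 ± 2.19 CPM in NT. The border-associated macrophage markers (7 genes such as Mrc1 and Pf4) were lower for 6 in PLX1X, 6 in PLX3X_CD0, 1 in PLX3X_CD30 and 1 in IR-BMT. Of 6 tested markers of engrafted bone marrow-derived macrophages, Ms4a7 and Lyz2 were lower and Emilin2 higher in PLX1X, Ms4a7 and Lyz2 were lower in PLX3X_CD0, none was called in PLX3X_CD30, and Clec12a was lower in IR-BMT. Ms4a7 was at 0 in all 3 PLX1X libraries and at 0.0327 ± 0.0307, 0.594 ± 0.443 and 0.491 ± 0.194 CPM in PLX3X_CD0, PLX3X_CD30 and IR-BMT, against 0.573 ± 0.165 CPM in NT. The part of these cells in the levels of the factors was not tested.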

How the data were processed

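Bulk RNA of mouse forebrain was read as paired reads of 150 bases from SMARTer Ultra Low libraries, which do not mark strand, per the labels' protocols. The submitters' processing notes name DRAGEN, DESeq2 and mm10. What each served for, which annotation was counted and whether counting used strand was not given in the sources used here. Gene counts and CPM for 15 libraries were deposited by the authors; this CPM equalled count over library total within rounding and was only checked. Of 55774 entries, 287 repeats of an identifier with identical counts were dropped. Between 70.6% and 74.7% of the counts from 1 to 4 were even.

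Counts were tested with edgeR 4.0.16 (R 4.3.3): filter by expression within groups, TMM scaling, 1 mean per group over all 15 libraries, robust quasi-likelihood F-test, and Benjamini-Hochberg adjustment over 21780 genes, with a threshold of 0.05. Log2 CPM used a prior count of 2. SE is the log2 fold change over the square root of F. Relative levels were compared with exact permutation tests (scipy 1.17.1). The fit was tested on simulated data. Total counts of 19249641 to 54801136 set the precision; the floor of 3 counts covers counting error only. Positions are from GENCODE M21 (mm10) and sequences from RefSeq.

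The 8 members, the 21 gene lists and the tests were chosen with earlier results of these data known. Genes named are the 8 members, 9 further genes, up to 4 of each list with the smallest adjusted p in each comparison with NT, and 3 like genes per member; overlapping genes were added after their values were seen. Some of these are not reported here. Alternatives were RLE scaling, DESeq2 1.42.0, other filters, a replicate block, a length and GC offset, fits of the 6 libraries compared, other markers, a prior count of 0.5, and leaving out each library.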

Additional observations from a re-analysis of the deposited data

How the results depend on the processing

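Of the values of single factors under the alternatives, 964 kept their direction and side of the threshold, 12 lost the call, 11 gained it and 21 turned sign. Leaving out single libraries gave Tal1 -1.12 to 0.74 in PLX1X, -0.85 to 1.02 in PLX3X_CD0, -0.24 to 1.62 in PLX3X_CD30 and -0.078 to 1.81 in IR-BMT against NT, -0.080 to 0.63 in PLX3X_CD0 against PLX1X and -0.0060 to 0.43 in IR-BMT against PLX3X_CD30. It gave Irf8 -0.22 to 0.34 in PLX3X_CD0 against PLX1X. Cebpa in IR-BMT against NT ran from -0.021 to 0.11, was -0.0020 with the filter of CPM of at least 1 in 3 libraries and -0.28 with the length and GC offset. Maf in IR-BMT against PLX3X_CD30 lay at 0: 0.0059 with RLE scaling, 0.0058 with DESeq2, 0.00080 with no filter, 0.035 with the offset and -0.078 to 0.080 leaving out single libraries. The causes were not tested.

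The number of factors called moved by over 1.5 times in 2 comparisons: 5 in PLX3X_CD30 against PLX1X in the fit of 6 libraries, and 1 in IR-BMT against PLX3X_CD30 with DESeq2 and in the fit of 6 libraries. Smaller moves, leaving out single libraries, were 3 to 4 in PLX3X_CD30 and 2 to 3 in IR-BMT against NT, 4 to 5 in PLX3X_CD30 against PLX3X_CD0 and 6 to 7 in IR-BMT against PLX1X. With no filter, 5 were called in PLX3X_CD30 and 4 in IR-BMT against NT, Spi1 being gained in both. The filter of CPM of at least 1 left Runx1 and Tal1 out. Under RLE scaling or the offset, 13 of 168 counts over gene lists moved by over 1.5 times; this check was chosen after seeing the data. Replicate numbers did not consistently pair the samples (correlations of deviations -0.090 to 0.23). The correlation exceeded 0.1 for 2 replicate numbers in IR-BMT against PLX3X_CD0 and for 1 each in PLX3X_CD0 and PLX3X_CD30 against NT. In the other comparisons it did not. The replicate block left the number of factors called as it was in all 10 comparisons and gave Maf 0.00067 in IR-BMT against PLX3X_CD30.

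With the microglia-restricted markers in place of the shared ones, relative levels against NT in PLX3X_CD30 were 0.33 for Spi1, 0.23 for Irf8, 0.083 for Irf5 and 0.36 for Ikzf1, all 4 turned in sign, and 1.27 for Maf and 1.11 for Cebpa. Spi1 in PLX1X also turned, to 0.090. In IR-BMT against PLX3X_CD30 they were -0.11 for Irf8, -0.12 for Irf5 and -0.11 for Ikzf1, all 3 turned in sign, and 0.032 for Spi1, -0.41 for Maf and 0.0038 for Cebpa. Differences of Spi1 in PLX3X_CD0 against PLX1X and of Tal1 in IR-BMT against PLX3X_CD30 turned too, by less than 1 SD. Spi1 was 0.27 in IR-BMT against PLX1X, and Irf5 -1.43 in PLX3X_CD30 against PLX3X_CD0.

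Over all genes, calls against NT were 3939 in PLX1X (2143 in the fit of 6 libraries), 4732 in PLX3X_CD0 (2601) and 1432 in PLX3X_CD30 (359, and 608 to 1714 leaving out single libraries). PLX3X_CD0 against PLX1X gave 536, with 1065 by DESeq2, 1186 with no filter, 328 with the offset and 150 to 289 leaving out single libraries. PLX3X_CD30 against PLX1X gave 263, with 537 by DESeq2, 696 with no filter, 814 in the fit of 6 libraries and 125 to 188 leaving out single libraries. PLX3X_CD30 against PLX3X_CD0 gave 828, with 1395 with no filter and 384 to 563 leaving out single libraries. IR-BMT gave 6197 calls relative to PLX1X (3436 with the offset), 4687 relative to PLX3X_CD0 (2059 with the offset, 3029 to 4441 leaving out single libraries) and 3597 relative to PLX3X_CD30 (1187 with the offset, 1975 to 3526 leaving out single libraries). Depth limits Runx1 and Tal1, with at most 64 and 28 counts per library.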
